A study of Mus musculus with 2 samples.

Results

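The 5 loci described here are Camk1d, Cdk8, Gm26917, Lars2 and Il31ra, 5 of the 35163 genes in a single cell RNA-seq table of mouse myofibers. They were chosen by name, on their high counts in this same table and a suspicion that those counts hold ribosomal RNA, so their levels and their likeness to one another are a description. The question was whether they rose and fell together, as 1 signal, across cells, plates and cell quality, and apart from fibre type. Single myofibers, the multinucleate cells of skeletal muscle, came from a foot muscle, the flexor digitorum brevis (FDB), of 1 untreated C57BL/6J mouse older than 3 months (>3 months of age). They were released by collagenase, sorted whole by a large particle sorter or taken as fragments by a pseudo-biopsy, and placed 1 to a well into 8 plates for mcSCRB-seq, a plate-based method that counts molecules by a random tag (UMI). Plates 705 to 708 were sequenced on lane 1 and plates 709 to 712 on lane 2. Of the 763 cells, 171 passed a filter of over 5000 detected genes and under 20% of counts from mitochondrial genes, and are called kept cells. The other 592 are called left out.

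Camk1d encodes a calcium/calmodulin-dependent protein kinase, Cdk8 the kinase of the Mediator complex, Lars2 the mitochondrial leucyl-tRNA synthetase and Il31ra a subunit of the interleukin-31 receptor. Gm26917 is annotated as a long non-coding RNA. Ribosomal RNA makes up most of the RNA of a cell and is cut from a long precursor copied from repeated genes in the nucleolus. Most of it has no poly(A) tail, yet priming at internal A-rich stretches or at degraded ends can bring it into libraries made for messenger RNA. Its repeats are poorly placed in genome assemblies, and copies or pieces of them lie inside or beside other genes, where their reads can be counted under another gene's name.

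The data went against the label of a single ribosomal-RNA-like signal. Over the kept cells Camk1d and Il31ra varied together most closely, Lars2 varied less closely with Il31ra, Cdk8 and Camk1d, and Gm26917 had only weak correlations with the other 4. In left-out cells Camk1d, Cdk8, Lars2 and Il31ra were closer to one another. Each was there among the 11 of 2273 genes closest to each of the others, at a rho of 0.47 to 0.60. Gm26917 had 0.13 to 0.22 with them. By rho alone, which locus the genes annotated as ribosomal RNA were closest to depended on the cells used. Over kept cells their rho with Il31ra and Camk1d was 0.23 to 0.31, against 0.060 and 0.055 for the median gene. Over all cells it was near or under that of the median gene, but most of these cells were left out and held few counts of them. The loci are therefore called by their names below.

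By position the 5 loci lay on 5 chromosomes of GRCm38 (GENCODE M21). Camk1d covered chr2:5293457-5714515 on the minus strand, Cdk8 chr5:146231230-146302874 on the plus strand, Lars2 chr9:123366927-123462666 on the plus strand and Il31ra chr13:112519898-112594360 on the minus strand. Gm26917, at chr17:39843013-39846341 on the plus strand, ended 11 bases before a gene annotated as ribosomal RNA on the minus strand (chr17:39846353-39848827). That gene and the long non-coding Gm42418, which overlaps it, were not analysed here as expression. The first 300 bases of Gm26917 (chr17:39843013-39843312, plus strand) are shown with no part in capitals, because its transcript stood apart in base composition:
Gm26917: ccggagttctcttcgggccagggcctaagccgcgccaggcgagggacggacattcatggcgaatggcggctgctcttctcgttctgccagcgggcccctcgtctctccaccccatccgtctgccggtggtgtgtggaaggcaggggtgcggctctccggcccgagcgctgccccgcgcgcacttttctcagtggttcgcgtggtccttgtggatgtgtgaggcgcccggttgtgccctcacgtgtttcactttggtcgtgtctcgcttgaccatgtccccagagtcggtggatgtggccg
The transcript had 69.1% G and C over 3329 bases, above 99.7% of 55341 genes, whose median was 47.1%. The longest transcripts of the other 4 loci had 42.5% in Cdk8, 46.9% in Camk1d, 48.2% in Il31ra and 51.2% in Lars2.

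Of the genes whose levels followed the loci across cells, Mir6240, which followed Camk1d, and Gm23935, which followed Lars2, are small RNA entries shown because their sequences are short enough to read whole. The mature miRNA sequence is from RefSeq (GRCm38.p6) with the seed, bases 2 to 8, in capitals. The hairpin of Mir6240 (chr5:114851948-114852064, plus strand) has the mature part in capitals. Gm23935 (chr16:11144125-11144181, plus strand, inside Zc3h7a on the opposite strand) is annotated as a miRNA gene and had 73.7% G and C. The last sequence is the first 30 bases of a run of 52 that Lars2 and Gm15564 have in common:
mmu-miR-6240: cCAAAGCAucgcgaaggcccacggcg
Mir6240 hairpin: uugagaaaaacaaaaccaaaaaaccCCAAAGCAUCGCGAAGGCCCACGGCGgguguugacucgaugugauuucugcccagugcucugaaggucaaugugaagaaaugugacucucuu
Gm23935: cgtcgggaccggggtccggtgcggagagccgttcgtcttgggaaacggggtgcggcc
Gm15564 and Lars2: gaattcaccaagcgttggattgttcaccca
In Lars2 that run lay in the 3′ UTR (chr9:123462048-123462099, plus strand), 565 bases from the transcript's end, and AA474408 was the only other gene to hold its first 30 bases. No 2 of the 5 loci had a 66-base word, the length of the cDNA read, in common in their annotated transcripts. The longest run between any 2 of them was 28 bases, between Cdk8 and Il31ra on opposite strands. With other genes, Cdk8 had 390 such words in common with Gm7107 and Lars2 had 3 with Gm47414, so reads at these places cannot be told apart by sequence. No member, and none of the genes most like them, held a 20-base word of the ribosomal RNA entries beside Gm26917, a word set found in 4 of 54985 genes (0.00727%). The same held for the words of the 5S entries, found in 37 genes (0.0673%), and of n-R5-8s1 and Gm24601, found in 0. These words cover only the entries named. The large subunit RNA, the long precursor and its spacers were not searched, so the search does not show that the loci lack ribosomal RNA sequence. Only annotated transcripts were compared, and where inside introns the reads lay was not analysed here.

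The kept cells held a median of 239581 counts per cell (28827 at the lowest) and the left-out cells a median of 16032. Mitochondrial genes gave 5.99% of the summed counts of kept cells and 52.5% of those of left-out cells. Of the 93 fragments, 90 were left out. The plates reuse the same 96 well barcodes, and no full barcode of plate and well occurred in more than 1 plate. The 5 myofiber markers Ttn, Acta1, Ckm, Myh1 and Myh2 summed to 106580 CPM in kept cells, where CPM is the count scaled to a total of 1000000 over the genes. As all cells come from 1 mouse there is 1 biological sample, no test was made and no p is given. The 95% limits below (exact Poisson for a level, exact conditional binomial for a ratio) cover counting error only.

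Together the 5 loci took 1.93% of all counts in kept cells, and each was counted in all 171. Camk1d was at 9986 CPM (95% limits 9958 to 10013), with a lowest cell of 1299, a median of 8266 and a highest of 32415. Il31ra was at 2285 CPM (2272 to 2298), with 222, 1662 and 9139. In both, the summed level stayed under the upper quartile of cells, which was 10598 CPM for Camk1d and 2331 CPM for Il31ra. Cdk8 was at 3278 CPM (3263 to 3294), but its lowest, median and highest cells had 416, 1525 and 25331. Lars2 was at 1222 CPM (1213 to 1232), with 104, 608 and 11831. For both of these the summed level was above the upper quartile of cells, 2272 CPM for Cdk8 and 896 CPM for Lars2. Gm26917 was at 2549 CPM (2535 to 2563), with 215, 2340 and 10498.

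The unevenness differed among the loci. The coefficient of variation of CPM over kept cells was 1.41 for Cdk8 and 1.42 for Lars2, compared with 0.538 for Camk1d, 0.589 for Gm26917 and 0.683 for Il31ra. Among the 78 genes with at least the CPM of Lars2, the median was 0.392. The 17 highest cells of a gene held 45.2% of the summed per-cell CPM for Cdk8 and 40.5% for Lars2. For Camk1d they held 21.4%, for Gm26917 22.2% and for Il31ra 25.1%. These 17 cells came from all 8 plates for Cdk8, with at most 4 from any plate.

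Camk1d and Il31ra were the most closely tied of the 10 pairs. Their Spearman correlation (rho) of CPM over the 171 kept cells was 0.86, and within single plates it ran from 0.75 to 0.92. These cells share library preparation and lane by plate, and every CPM shares its cell's total, so the correlations are descriptions. Among 8748 other genes Il31ra was the 2nd closest to Camk1d, and Camk1d the 2nd closest to Il31ra. The median gene had a rho of 0.055 with Camk1d and 0.060 with Il31ra. The ratio of the pair varied little, with a median of 20.7 counts of Il31ra per 100 of Camk1d and 13.2 to 35.4 between the 5th and 95th percentile of cells. Of the 17 highest cells of each, 13 were the same. In left-out cells the rho was 0.60 and the median ratio 19.7 per 100, over the 436 cells with at least 20 counts of the pair.

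Lars2 reached a rho of 0.59 with Cdk8 and 0.62 with Il31ra. Cdk8 and Lars2 had 11 of their 17 highest cells in common, but their ratio was looser, with a median of 40.7 counts of Lars2 per 100 of Cdk8 and 16.8 to 96.2 between those percentiles. Within plates, the rho of Cdk8 with Lars2 ran from 0.21 to 0.82. Camk1d had 0.53 with Lars2 and 0.39 with Cdk8, and Cdk8 had 0.37 with Il31ra. Few cells carried the upper end of all 4 genes. A cell on plate 707 with 120365 counts was the highest for Cdk8 (25331 CPM), Lars2 (11831) and Il31ra (9139), and the 3rd for Camk1d (24085) and Gm26917 (7103). A cell on plate 712 with 846559 counts was the highest for Camk1d (32415 CPM) and the 2nd for Lars2 (9520) and Il31ra (8366). A cell on plate 708 with 1138461 counts was the 2nd for Cdk8 (22431 CPM) and the 3rd for Lars2 (7300) and Il31ra (7194). These cells were high in at least 4 of the loci at once, and their totals ran from 120365 to 1138461 counts. Across all kept cells the rho with the total count was 0.45 for Camk1d, 0.46 for Il31ra, 0.31 for Lars2, 0.18 for Cdk8 and 0.038 for Gm26917. With every kept cell thinned to the lowest total, the median over the 10 pairs was 0.38, as without thinning.

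Gm26917 had the weakest correlations with the other 4. Its rho over kept cells was 0.030 with Camk1d, 0.14 with Lars2 and 0.17 with both Cdk8 and Il31ra, and within plates its rho with Camk1d ran from -0.29 to 0.24. Ordered by likeness to Gm26917, Il31ra was number 1688, Cdk8 1716, Lars2 2193 and Camk1d 4928 of 8748 genes, and Gm26917 was number 178 in likeness to Cdk8. Over all 763 cells its rho was 0.15 to 0.24 with the other 4, above 0 on 8 of 8 plates for each. Most genes were above 0 with Camk1d and Il31ra there, the median gene having 0.35 and 0.34. In likeness to these 2, Gm26917 was only number 9354 and 9152 of 9764 genes, and it was number 4137 for Lars2 and 173 for Cdk8. In the other direction the loci stood higher than in kept cells. Ordered by likeness to Gm26917 over all cells, Il31ra was number 139, Camk1d 161, Cdk8 226 and Lars2 559 of 9764 genes. In left-out cells Camk1d was number 134, Il31ra 140, Cdk8 147 and Lars2 264 of 2273. Pearson's r of log2(CPM + 1) between Gm26917 and Camk1d was 0.46 over all cells. Per 100 counts of Camk1d, a kept cell had a median of 27.2 counts of Gm26917, and 7.33 to 117 between the 5th and 95th percentile, a 16.0-fold range against 2.69-fold for Il31ra. The cell highest in Gm26917, on plate 710, had 10498 CPM of it, but 841 CPM of Cdk8 and 438 CPM of Lars2. The plate 712 cell that was highest in Camk1d had 1466 CPM of Gm26917, under its median.

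Taking a rho of at least 0.5 as close, Lars2 was close to 3 of the other 4 loci, a grade that 0.251% of all genes reached with it. Camk1d was close to Il31ra and Lars2 (0.274% of genes), and Il31ra to Camk1d and Lars2 (0.217%). Cdk8 was close to Lars2 alone (0.16%), and Gm26917 to none (0.0343%). In all 763 cells, Camk1d with Il31ra (0.76), Cdk8 with Lars2 (0.54) and Lars2 with Il31ra (0.52) reached that grade, which 0.461% of genes reached with Camk1d, 0.0922% with Cdk8, 0.113% with Lars2 and 0.328% with Il31ra. The same 3 pairs did in left-out cells, at 0.60, 0.51 and 0.51, a grade reached by 0.22% of genes with Camk1d, 0.396% with Cdk8, 0.264% with Lars2 and 0.264% with Il31ra. Of the other 4 loci, Il31ra had the highest value with Gm26917 in all cells (0.24), where 0% of 9764 genes reached 0.5 with it. In left-out cells Camk1d had the highest value with Gm26917 (0.22), where 0.088% of genes reached 0.5 with it. The median over the 10 pairs was 0.38 in kept, 0.44 in all and 0.47 in left-out cells. It was 0.86 in kept cells on raw counts, where every gene follows the depth of its cell, so that its size depends on the scale.

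**Figure D1:**
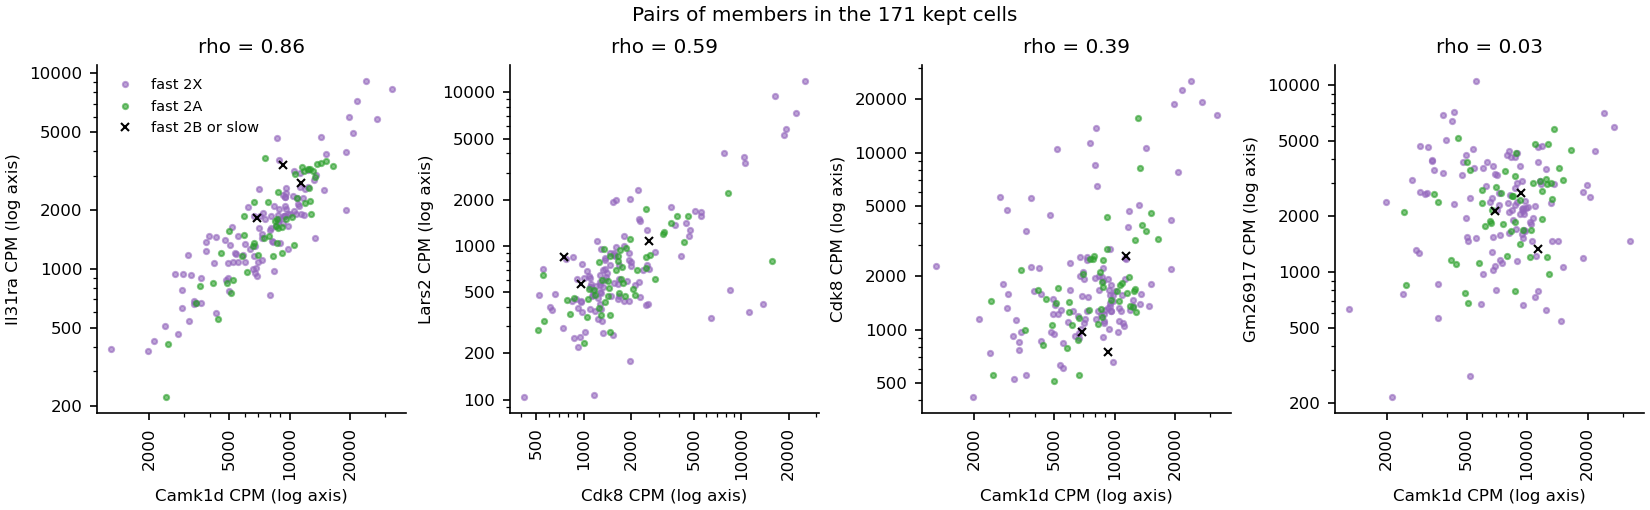
Each point is 1 of the 171 kept cells, with CPM of 1 locus on each axis (log axes), coloured by the dominant myosin gene, and rho is printed above each panel. Camk1d and Il31ra form a narrow band, Cdk8 and Lars2 a wider one with a few cells high in Cdk8 alone, and Camk1d and Gm26917 form a round cloud, with fast 2A and fast 2X cells mixed in the main cloud of all 4 panels and fast 2X cells at the top of Cdk8 and Lars2.

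The genes most like each locus fell into separate groups. For Camk1d they were 9330185C12Rik (rho 0.86, a long non-coding RNA), Il31ra, Gphn (0.82, gephyrin, which anchors inhibitory receptors at synapses), Dcaf10 (0.74, a subunit of a ubiquitin ligase), Cmss1 (0.72) and Fgfr2 (0.71, a fibroblast growth factor receptor). Next came Cplx2 (0.69, a regulator of synaptic vesicle release), Mir6240 (0.67), Dnah7b (0.66, an axonemal dynein) and Mphosph8 (0.66, a reader of silenced chromatin). Gphn was the closest of all to Il31ra (0.91), and 7 of the 10 genes closest to Camk1d were also among the 10 closest to Il31ra. Levels in kept cells were 3598 CPM for Fgfr2, 2196 CPM for Gphn and 25.5 CPM for Mir6240.

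The 10 genes closest to Cdk8 included Gm19951, Gm15564 and Arhgap21 (each 0.68, the last a GTPase-activating protein), Cmss1 (0.66), Jarid2 (0.65, a Polycomb cofactor), Gm48099 (0.64), Mir6236 (0.63), Il1rapl1 (0.63, a synaptic adhesion protein) and D130009I18Rik (0.62). Those closest to Lars2 were Gm15564 (0.83), Gm23935 (0.81), Cmss1 and Jarid2 (each 0.80), Arhgap21 (0.78), Cd44 (0.76, the hyaluronan receptor), Gm19951 (0.75), Gm48099 (0.73), Mir6236 (0.70) and D130009I18Rik (0.69). Of these 10 genes for each, 8 were in common between Cdk8 and Lars2, while 1 (Cmss1) was in common between either of them and Camk1d. Cmss1, named for a protein of small ribosomal subunit assembly, was thus among the 10 closest to 4 of the 5 loci, at 6014 CPM in kept cells. Jarid2 was at 6212 CPM and Mir6236 at 5858 CPM. The annotated bodies of Cmss1 and Filip1l overlap on opposite strands, as do those of Camk1d and Gm13216, and Cdk8 overlaps Gm15739 and Il31ra overlaps Gm3226 on the same strand. The counting used its tool's default strand setting, which is not spelled out in the sources used here.

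Gm26917 had none of its 10 closest genes in common with any other locus. They were Dlc1 (0.59, a GTPase-activating protein), Sfi1 (0.54, a centrosome protein), Flt1 (0.51, a receptor of vascular endothelial growth factor), Arhgap15 (0.49), Opcml (0.49), Bbs9 (0.48), Otx2os1 (0.47), Arl15 (0.47), Mylk (0.47) and Ksr2 (0.46). These genes were rare, from 16.0 CPM for Otx2os1 to 166 CPM for Sfi1, so their correlations rest on few counts per cell, and with a minimum of 2000 counts in place of 500 only 2 of the 10 remained. Of the 10, Mylk, the kinase of smooth muscle myosin light chain, and Flt1 are known from vessels. Of the endothelial markers Pecam1, Cdh5, Kdr, Tek and Flt1, 3 had enough counts (at least 500 in kept cells) and ran from -0.086 to 0.51 with Gm26917. Against these stood Trhde (-0.48, a peptidase that degrades thyrotropin-releasing hormone), Spop (-0.46, a ubiquitin ligase adaptor) and Nfe2l1 (-0.45, a transcription factor). In left-out cells the order was another, with Acta1 (0.57) and Myl1 (0.52), genes of the contractile apparatus, closest to Gm26917, and mt-Rnr1 and mt-Rnr2, the mitochondrial ribosomal RNAs, lowest (each -0.56). The part of vessel cells or of mitochondrial counts in these values was not tested.

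The genes least like Camk1d were Aldoa (-0.33, a glycolytic aldolase), Cystm1 (-0.32) and Acta1 (-0.31, skeletal actin). For Cdk8 they were Gm21865 (-0.40), Col14a1 (-0.40, a collagen) and Cftr (-0.38, a chloride channel). For Lars2 they were Cavin1 (-0.46, a caveola protein), Gm10358 (-0.44) and Gm12328 (-0.43), and for Il31ra Ndufa7 (-0.34, of respiratory complex I), mt-Nd4l (-0.33) and Pfkm (-0.32, muscle phosphofructokinase). Lars2 also had 0.44 with mt-Rnr1, compared with 0.14 for Camk1d, 0.11 for Il31ra, 0.26 for Cdk8 and -0.22 for Gm26917.

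**Figure D2:**
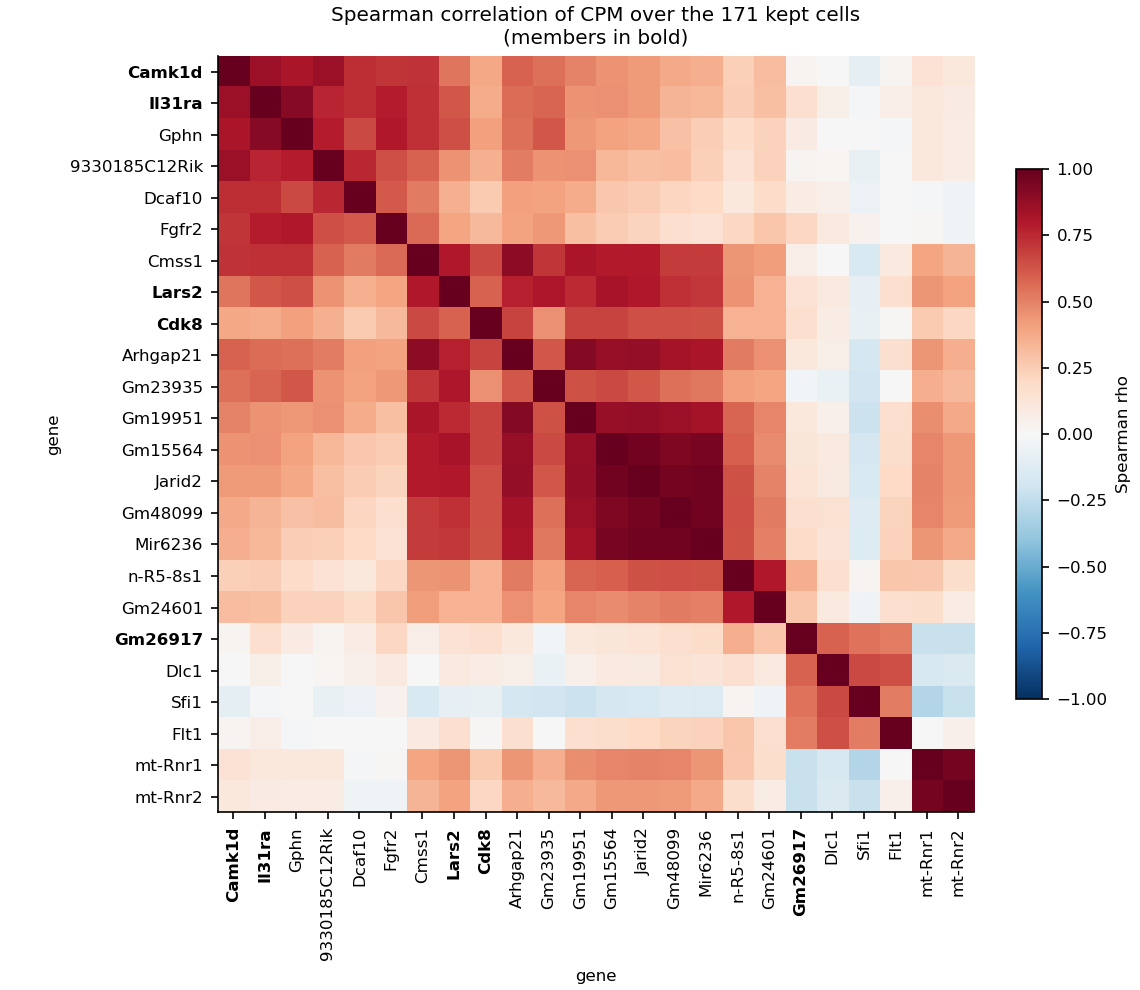
Spearman correlations of CPM over the 171 kept cells between the 5 loci (bold), the genes most like them, the annotated ribosomal RNA genes n-R5-8s1 and Gm24601 and the mitochondrial mt-Rnr1 and mt-Rnr2, on a colour scale from -1 (blue) to 1 (red). A block around Camk1d and Il31ra, a block from Cmss1 to Mir6236 that holds Lars2 and Cdk8, and a small block around Gm26917 can be seen, with Cmss1 red in the first 2.

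The loci were not close to the genes that share their annotated function. Camk1d ran from -0.17 (Camk2b, 264 CPM) to 0.28 (Camk2d, 112 CPM) with 6 other calcium/calmodulin kinases, Cdk8 from -0.038 (Med13) to 0.15 (Med12l) with 6 genes of the Mediator kinase module. Lars2 ran from -0.069 (Tars2) to 0.18 (Rars2) with 9 other mitochondrial tRNA synthetases. Il31ra ran from -0.11 (Stat5b) to 0.10 (Il6st) with 6 genes of its pathway, and Il31, its ligand, was at 1.14 CPM and Osmr, its partner subunit, at 8.38 CPM. Gm26917 ran from -0.18 (Ncl, nucleolin) to 0.21 (Polr1c, of RNA polymerase I) with 17 genes of ribosomal RNA transcription and processing. No gene of these lists reached 0.5. Many of them were rare, down to 9.63 CPM for Cars2, so their correlations rest on few counts per cell. Jak1, at 345 CPM, had 0.024 with Il31ra. In a list of loci thought to hold ribosomal RNA, Cmss1 and Zc3h7a reached 0.5 with Camk1d and with Il31ra, Cmss1 and Jarid2 with Cdk8, and all of these genes with Lars2. With Gm26917 none did, Gm26870 being the closest at 0.35.

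Of 354 genes annotated as ribosomal RNA outside the mitochondrion, 56 were in the table, and 2 had at least 500 counts in kept cells. These were n-R5-8s1, named for the 5.8S ribosomal RNA, at 148 CPM (144 to 151) in kept and 80.2 CPM in left-out cells, and Gm24601 at 33.2 CPM in kept and 17.7 CPM in left-out cells. The other 54 summed to 315 counts. The 2 genes correlated at 0.80 over kept cells although they have no 20-base word in common. With n-R5-8s1 the rho was 0.45 for Lars2, 0.36 for Gm26917, 0.35 for Cdk8, 0.24 for Il31ra and 0.23 for Camk1d, against a median gene of 0.041. Lars2 was number 13 of 8748 genes in likeness to it, Gm26917 number 41, Cdk8 number 52, Il31ra number 385 and Camk1d number 468. With Gm24601 the rho over kept cells was 0.35 for Lars2 and for Cdk8, 0.31 for Camk1d, 0.30 for Il31ra and 0.28 for Gm26917. The median gene had 0.050 with Gm24601. In likeness to Gm24601, Lars2 was number 34, Cdk8 number 35, Camk1d number 81, Il31ra number 93 and Gm26917 number 158 of 8748 genes. Next to Gm24601, the genes closest to n-R5-8s1 were Gm48099 (0.65), Il1rapl1 (0.65), Mir6236 (0.64), Jarid2 (0.64) and Gm15564 (0.60). Of its 10 closest genes, 8 were among the 10 closest to Cdk8 and 7 among those of Lars2, and 0 among those of Camk1d, Il31ra or Gm26917. Over all 763 cells the order was another. There n-R5-8s1 had 0.35 with Il31ra, 0.31 with Lars2, 0.29 with Camk1d, 0.23 with Cdk8 and 0.19 with Gm26917. Gm24601 had 0.35 with Il31ra, 0.33 with Camk1d, 0.24 with Lars2, 0.21 with Cdk8 and 0.15 with Gm26917. The median gene in all cells had 0.34 with Il31ra, 0.35 with Camk1d, 0.14 with Lars2, 0.070 with Cdk8 and 0.074 with Gm26917. Both genes were thus near or under the median gene for Il31ra and Camk1d, and above it for Lars2, Cdk8 and Gm26917. At the median total of 16032 counts in left-out cells both genes were rare, so these values over all cells rest on few counts per cell. Over the summed CPM of the 8 plates, n-R5-8s1 had 0.40 with Gm26917, 0.29 with Cdk8 and with Il31ra, 0.19 with Lars2 and -0.29 with Camk1d. By rho alone the annotated ribosomal RNA genes thus stayed with no single locus, and no locus reached 0.5 with them. Each locus was, however, above the median gene over kept cells in its rho with n-R5-8s1 and with Gm24601.

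Over the 8 plates the loci differed in range and in which plate was high. Camk1d ranged over kept cells from 8551 CPM on plate 710 to 12227 on plate 712, 1.43-fold, and Il31ra from 1740 on plate 711 to 2991 on plate 707, 1.72-fold. Cdk8 ranged from 1505 CPM on plate 710 to 5722 on plate 708, 3.80-fold, and Lars2 from 620 on plate 710 to 1994 on plate 712, 3.22-fold. By the median cell these ranges were 2.25-fold for Cdk8 and 1.78-fold for Lars2, but 1.76-fold for Camk1d and 2.35-fold for Il31ra. By summed CPM Gm26917 ran another way, highest on plate 710 (3610 CPM), where the other 4 loci were at or near their lowest, and lowest on plate 712 (1520 CPM), where Camk1d and Lars2 were highest. By the median cell it was highest on plate 709 (3283 CPM) and again lowest on plate 712 (1466 CPM). Of the 8 plates, n-R5-8s1 was highest on plate 708 (232 CPM) and lowest on plate 712 (91.7 CPM).

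Across plates, the rho of summed CPM was 0.81 for Lars2 with Il31ra, 0.79 for Cdk8 with Lars2 and 0.69 for Camk1d with Il31ra, and -0.52 for Gm26917 with Lars2. These values rest on 8 plates of 16 to 27 kept cells from 1 mouse. By the median cell of each plate they were 0.40, 0.55, 0.62 and 0.14. On the log2 scale, lane 2 over lane 1 was 0.11 for Camk1d, -0.46 for Cdk8, -0.15 for Gm26917, -0.067 for Lars2 and -0.11 for Il31ra, with a median of 0.14 over all genes. The value of Cdk8 was above those of only 2.02% of genes, and none of the 5 was past 2-fold (0.96% of genes higher and 0.183% lower).

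**Figure D3:**
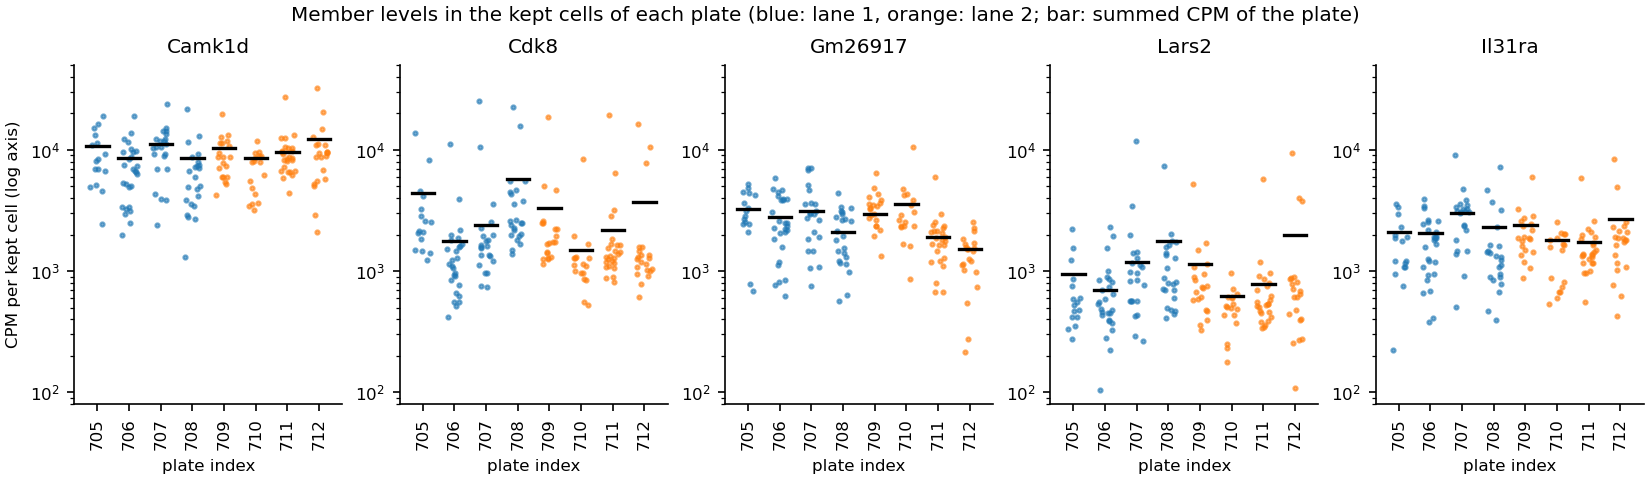
CPM of each locus in each of the 171 kept cells (points, log axis) by plate, with lane 1 in blue and lane 2 in orange, and the plate's summed CPM as a black bar. For Cdk8 and Lars2 the bars of plates 708 and 712 stand above most points, as a few cells reach over 5000 CPM, while Gm26917 is highest on plate 710 and lowest on plate 712.

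The loci also differed in how they stood in cells of low quality. In left-out cells Camk1d was at 5104 CPM (5068 to 5139), Il31ra at 1057, Gm26917 at 1601, Cdk8 at 2474 and Lars2 at 997. The log2 ratio of left-out over kept cells was -0.97 for Camk1d, which was also the median of the 9765 genes compared (-0.97), and -1.11 for Il31ra. It was -0.67 for Gm26917, -0.41 for Cdk8 and -0.29 for Lars2. Only Il31ra was past 2-fold, lower, as were 48.3% of all genes, and no locus was past 2-fold higher (2.57% of genes). The 2 annotated ribosomal RNA genes stood at -0.88 (n-R5-8s1) and -0.91 (Gm24601), near that median. The mitochondrial mt-Rnr2 was higher by 2.94. Cells without any count among the 592 numbered 21 for Camk1d, 26 for Cdk8, 20 for Gm26917, 68 for Lars2 and 55 for Il31ra, at a median of 7 counts of Lars2 and 8 of Il31ra per cell.

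These ratios depended on the denominator. Without mitochondrial genes in the total, the log2 ratio was 0.017 for Camk1d, 0.58 for Cdk8, 0.31 for Gm26917, 0.69 for Lars2 and -0.13 for Il31ra, so that Cdk8, Gm26917 and Lars2 took a larger share of the remaining counts in left-out cells. Per molecule of added spike-in RNA, all 5 were lower in left-out cells, from -2.65 for Lars2 to -3.46 for Il31ra, with Ttn, the giant sarcomere protein, at -3.77. A denominator moves all 5 by the same amount, so their order, from Lars2 to Il31ra, does not depend on it. The order did depend on how cells were summarised. By the mean of per-cell CPM, Gm26917 was at -0.054 (2565 CPM in kept and 2470 in left-out cells). That placed it above Lars2 (987 and 820 CPM). By the median cell, Cdk8 (1525 and 1424 CPM) was above Lars2 (608 and 509 CPM).

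Within plates, left-out over kept ran from -1.89 to -0.45 for Camk1d and from -1.01 on plate 711 to -0.49 on plate 706 for Gm26917, and both were below 0 on all 8 plates, as was Il31ra. Lars2 ran from -0.81 on plate 709 to 0.86 on plate 710 and Cdk8 from -1.07 to 0.33, each above 0 on plates 705 and 710. By the reason for leaving out, the 107 cells with few genes only had Camk1d at -0.996 and Il31ra at -1.03, but Cdk8 at 0.12, Gm26917 at 0.33 and Lars2 at -0.17. In these cells the median over genes was -0.14, and Il31ra alone was past 2-fold, lower (11.1% of genes lower and 5.89% higher). In the 111 cells with high mitochondrial counts only, no locus was past 2-fold (39.1% of genes lower and 5.36% higher), with Camk1d at -0.69, Il31ra at -0.78, Gm26917 at -0.60, Cdk8 at -0.12 and Lars2 at 0.063, against a median of -0.77. In the 374 cells that failed both limits, Camk1d (-1.35) and Il31ra (-1.60) were past 2-fold lower, as were 74.1% of genes (1.17% higher), while Cdk8, Gm26917 and Lars2 lay between -0.86 and -0.84 against a median of -1.37. Other cell types moved with this contrast too. The 5 endothelial markers summed to 156 CPM in kept and 397 CPM in left-out cells, 4 of 5 being past 2-fold higher. The 4 red cell markers summed to 17.9 and 146 CPM and the 3 fibro-adipogenic markers to 39.6 and 95.5 CPM. The 4 smooth muscle and pericyte markers summed to 134 and 209 CPM but went both ways. Of these, Rgs5 (13.3 and 144 CPM) and Myh11 (15.8 and 18.9 CPM) were higher in left-out cells. Smtn (94.8 and 39.5 CPM) and Acta2 (9.71 and 5.77 CPM) were lower. Satellite cell, immune and Schwann markers were at most 19.9 CPM in sum in either group, and all 5 myofiber markers were past 2-fold lower. Their part in the ratios of the 5 loci was not tested.

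**Figure D4:**
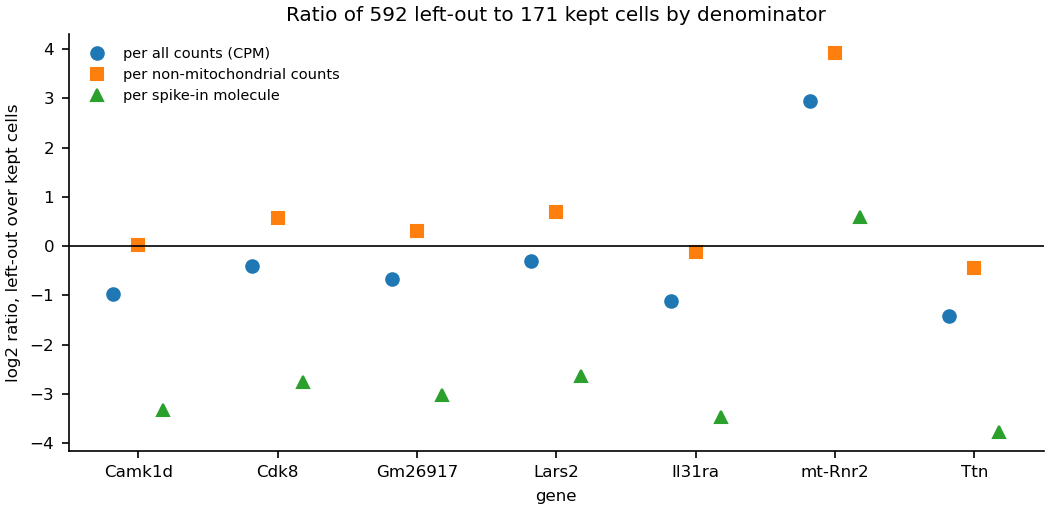
Log2 ratio of the 592 left-out over the 171 kept cells for the 5 loci, mt-Rnr2 and Ttn, per all counts (circles), per counts without mitochondrial genes (squares) and per spike-in molecule (triangles). Per all counts the 5 loci run from -0.29 (Lars2) to -1.11 (Il31ra), and the whole set moves by the same amount with each other denominator.

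Among left-out cells the 90 fragments were compared with the 502 whole myofibers. All 5 loci were higher in the fragments by summed CPM, with log2 ratios of 0.79 for Cdk8 (3701 against 2139 CPM), 0.50 for Lars2, 0.38 for Camk1d, 0.33 for Il31ra and 0.14 for Gm26917 (-0.20 by the median cell), against a median of 0.065 over 2274 genes. None was past 2-fold, as were 0.396% of genes higher and 1.19% lower. Over plates the ratio of Cdk8 ran from -0.53 on plate 712 to 2.11 on plate 705, with a median of 0.062, and plates 705 and 711 alone were above 1. Lars2 ran from -0.65 to 1.98 with the same plates at the top. Without lane 1, which holds plate 705, Cdk8 was at 0.24 and Lars2 at 0.089. All fragments lay in the last plate row, so fragment and plate row cannot be told apart.

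Fibre type was read from the dominant gene among Myh1, Myh2, Myh4, Myh7 and Myh8, which gave 51 fast 2A cells (Myh2) and 117 fast 2X cells (Myh1) of the 171. Camk1d stood at 9788 CPM in the fast 2A group and at 10084 CPM in the fast 2X group, which is -0.043 as a log2 ratio, and Gm26917 at 2580 and 2547 CPM, 0.018 with limits that include 0. Il31ra was at 2180 and 2314 CPM (-0.086), near the median of all genes (-0.092). Cdk8 was at 2912 and 3436 CPM (-0.24) and Lars2 at 901 and 1331 CPM (-0.56). Without lane 1 the values were -0.35 for Camk1d, -0.42 for Il31ra and -1.02 for Cdk8, and without lane 2 they were 0.23, 0.12 and 0.025. None of the 5 was past 2-fold, as were 0.809% of 8654 genes higher and 1.76% lower in fast 2A cells.

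The difference in Lars2 lay in few cells. Its median cell had 605 CPM in fast 2A and 614 CPM in fast 2X, while its highest cell had 2207 CPM in fast 2A and 11831 CPM in fast 2X. Of the 17 cells highest in Lars2, 15 were fast 2X, as were 15 of the 17 highest in Cdk8. The counts of fast 2X cells were 13 of 17 for Camk1d, 12 for Gm26917 and 11 for Il31ra. These 3 lay near the share of fast 2X among all kept cells, 117 of 171. In the 7 plates that held 3 or more of both types, the ratio of Lars2 ran from -1.97 on plate 712 to 1.18 on plate 705, above 0 on 2. Camk1d ran from -0.71 to 0.36, above 0 on 4, and Gm26917 from -0.31 to 0.52, above 0 on 2. Il31ra was above 0 on 3, and Cdk8, from -1.98 to 0.35, was above 0 only on plate 706. No locus had 1 direction on all 7 plates. Over 9 alternatives, such as other scalings or a lane left out, Lars2 was lower in fast 2A cells in 9, from -0.999 to -0.021, and Cdk8 in 7. The annotated n-R5-8s1 was at 147 CPM in fast 2A and 149 CPM in fast 2X cells (-0.021, limits -0.099 to 0.056), and mt-Rnr1, in contrast, was higher in fast 2A cells by 0.76 on the log2 scale.

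**Figure D5:**
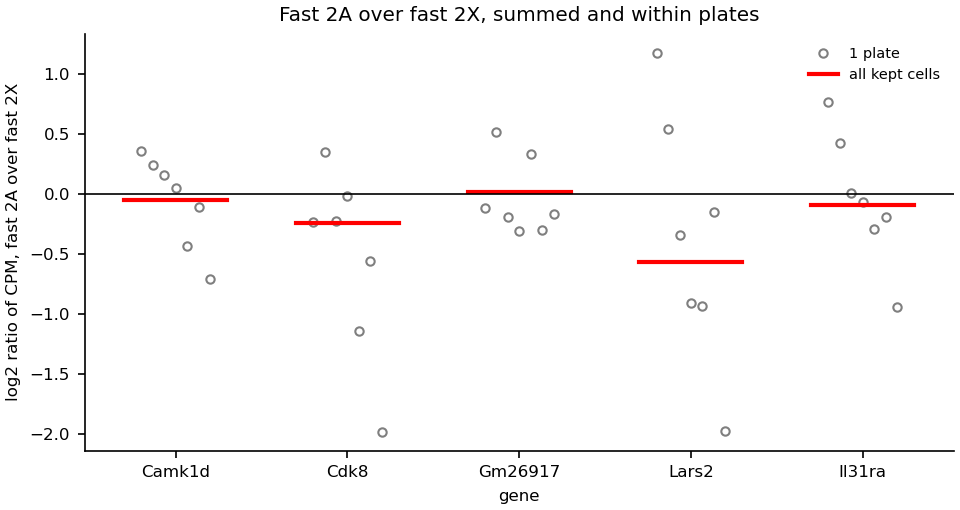
Log2 ratio of CPM in fast 2A over fast 2X cells for each locus, in all kept cells (red bars) and within each of 7 plates (open circles). The circles lie on both sides of 0 for all 5 loci, with the widest spread for Lars2, from -1.97 to 1.18.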

How the data were processed

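The authors mapped the reads to GRCm38 (Ensembl) with spike-in sequences using zUMIs at its default settings, with STAR 2.5.4b and featureCounts, and deposited a table of raw UMI counts (35163 genes by 763 cells, 1 mouse), beside 10 descriptive rows. What these defaults mean for introns and strand is not spelled out in the sources used here. From the deposited counts, cells with more than 5000 genes and less than 20% mitochondrial counts were kept. Counts were summed over cells and scaled to CPM, with spike-ins held apart. Ratios and correlations used genes with at least 500 summed counts. Genes named are the 10 most and 3 least like each locus, reference genes and lists, all chosen with earlier results of these data known. Python 3.11.15, numpy 2.4.6, pandas 2.3.3, scipy 1.17.1 and matplotlib 3.10.9 were used, and the ratios and limits were tested on simulated data. Sequences came from GENCODE M21 and RefSeq. Depth (at least 28827 counts per kept cell) limits genes of few counts, and p-values could not be given with 1 mouse. Some items are not reported here.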

Additional observations from a re-analysis of the deposited data

How the results depend on the processing

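Of 200 alternatives, 150 were graded as the same and 50 as moved. The grade was set by whether a value shifted by less than its spread. For the lists of closest genes it was set by how many of the 10 genes remained. Of the main log2 ratios varied here, only that of Il31ra in left-out over kept cells was past 2-fold. Its sign held in 10 of 10, but its size fell short of 2-fold with trimmed-mean (-0.70) and median-ratio factors (-0.78) and without mitochondrial genes. The median rho in kept cells (0.38) was 0.31 to 0.53 on leaving out a lane, 0.47 as Pearson of log2(CPM + 1), 0.86 on raw counts, 0.65 per spike-in molecule (167 cells) and 0.50 with ranks centred within plates. In all cells (0.44) it was 0.34 to 0.52 without a lane, 0.92 on raw counts, 0.30 with totals without mitochondrial genes and the 5 loci, 0.88 per spike-in molecule, 0.55 thinned to the lowest total kept (350 cells) and 0.54 in cells with at least 5000 counts. For left-out over kept cells, totals without mitochondrial genes gave 0.017 (Camk1d), 0.58 (Cdk8), 0.31 (Gm26917), 0.69 (Lars2) and -0.13 (Il31ra), and spike-ins gave -3.32, -2.76, -3.02, -2.65 and -3.46. Gm26917 was at -0.26 with trimmed-mean factors, -0.34 with median-ratio factors, -0.054 by mean and -0.44 by median per-cell CPM, and Camk1d at -1.59 by the median. Fragments over whole myofibers for Gm26917 gave -0.20 by the median. The highest over lowest plate for Camk1d was 1.76 by the median cell, 1.29 to 1.43 without a lane, 1.54 in all cells and 1.30 without the highest cell. For Cdk8 it was 3.90 without mitochondrial genes, 2.25 by the median, 2.49 to 3.22 without a lane and 3.19 in all cells. For Gm26917 it was 2.24, 1.53 to 2.38, 2.22 and, without the highest cell, 2.14. For Lars2 it was 1.78, 2.53 to 3.22 and 2.87, and for Il31ra 2.35, 1.44 to 1.56, 1.79 and 1.64. Fast 2A over fast 2X without a lane was -0.35 to 0.23 for Camk1d and -1.02 to 0.025 for Cdk8, the first of these past 2-fold. With a minimum of 2000 counts, 2 of the 10 genes closest to Gm26917 remained. The cause of these shifts was not tested. The ratios of medians and the plate ranges without the highest cell were chosen after seeing the data. No paired analysis was possible because the lanes hold different cells of 1 mouse and no result comes from a test.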
